A study of Mus musculus with 12 samples.

Results

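Pattern recognition genes encode the sensors by which cells detect microbial molecules, and inflammasome and gasdermin genes encode the machinery that turns detection into cytokine release and lytic cell death. The set described here holds 42 genes chosen by symbol: 11 Toll-like receptors, 6 of their adaptors and kinases, 3 genes of lipopolysaccharide (LPS) recognition, 11 NOD-like receptors, 4 inflammasome genes, 4 gasdermins and 3 other receptors. All 42 were found among the 45808 genes of the table, and 38 passed the filter for testing, a mean of at least 10 normalized counts over the 12 libraries. Nlrp3, Nlrp10, Gsdmc3 and Gsdmc4 lay below it.

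Toll-like receptors bind bacterial lipids, proteins and nucleic acids at the cell surface or in endosomes and signal through the adaptors Myd88 and Ticam1. NOD-like receptors sit in the cytosol. Naip proteins bind flagellin or parts of bacterial secretion systems and then assemble with Nlrc4, which activates Casp1. Active Casp1 cuts Gsdmd, whose fragments form pores in the cell membrane, and in the intestine this pathway is known for the expulsion of infected epithelial cells.

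Polyadenylated RNA was sequenced from pieces of distal ileum of BALB/c mice, an inbred strain. There were 6 libraries from mice given phosphate-buffered saline (PBS) and 6 from mice treated with Porphyromonas gingivalis, a Gram-negative oral bacterium associated with periodontitis. The sources used here give no route, dose, duration, age or sex and do not say whether each library is a separate mouse, so p-values measure only the spread between these samples. Both groups carry no stated allele or other agent. Values are normalized counts. A difference is the P. gingivalis mean less the PBS mean of log2(normalized count + 1), with its standard error (SE) and 95% interval from the limma fit. In whole tissue, fewer cells of a type and less RNA per cell cannot be told apart.

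The libraries held 6553306 to 10378841 recovered reads. In 3 of them the ileal marker Fabp6, the ileal bile acid binding protein, was far below the rest. PBS replicate 6 had 4.32, and P. gingivalis replicates 1 and 5 had 2.52 and 16.0, against 11246 or more in the other 9. Fabp1, which carries fatty acids in more proximal enterocytes, stood at 16938 to 26745 in these 3 libraries and at most 1821 elsewhere. These libraries therefore go against the distal ileal label on both markers, and the differences that rest on them are also given without them. P. gingivalis replicate 6 lay at the other end. Its Fabp6 was 15621, but its Fabp1, at 18.27, was the lowest of the 12 libraries. Its summed level of 9 proximal small intestine markers was 6571, against 19884 or more in every other library. The part of gut position in the values of replicate 6 was not tested. Summed over 9 epithelial markers, the level ran from 78942 to 94058 in PBS and more widely after P. gingivalis, from 55508 in replicate 1 and 62995 in replicate 6 to 115412 in replicate 2. Of 8 neutrophil markers, S100a8 and Elane had no reads in any library, S100a9, Ly6g, Mpo and Cxcr2 were at most 3.29, and Retnlg and Csf3r were at 3.62 to 35.3 and 5.98 to 32.8, with a summed level of 27.0 to 39.8 in PBS and 19.0 to 71.9 after P. gingivalis. Fat cell and mesothelial markers moved with the group: 7 of 7 and 4 of 4 tested markers were lower after P. gingivalis at an unadjusted p under 0.05, with 0 called. Their summed levels were 1549 to 6833 (fat cell) and 125.4 to 278.5 (mesothelium) in PBS and 448.2 to 2299 and 45.4 to 99.7 after P. gingivalis. Smooth muscle markers were negative in 6 of 6 tested, 3 of them at an unadjusted p under 0.05. Positive differences were found for 11 of 11 tested B cell, 5 of 5 T cell and 15 of 17 macrophage and dendritic cell markers, with 0, 1 and 1 at an unadjusted p under 0.05. The part of these cell types in the results below was not tested.

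No gene of the set passed the test between the groups. By limma, 0 of the 38 tested members had an adjusted p under 0.05, where 0% of all 15025 tested genes did, and their adjusted p-values ran from 0.992 to 0.999. None had an unadjusted p under 0.05, beside 3.73% of all tested genes. On the recovered reads, edgeR called 0 of 38 members, beside 0% of all genes it tested, and DESeq2 0 of 42, beside 0.114%. Each had 0 members at an unadjusted p under 0.05, where 3.79% of all genes by edgeR and 2.58% by DESeq2 did. Positive differences were found for 15 members and negative ones for 23, with a median of -0.03, while over all tested genes 48.9% were positive and the median was -0.004. The groups overlapped for every member, and over all tested genes 0.166% had no overlap. The 95% interval lay within a 2-fold change in either direction for 35 of the 38 members, the exceptions being Tlr7, Cd14 and Gsdmc2.

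**Figure D1:**
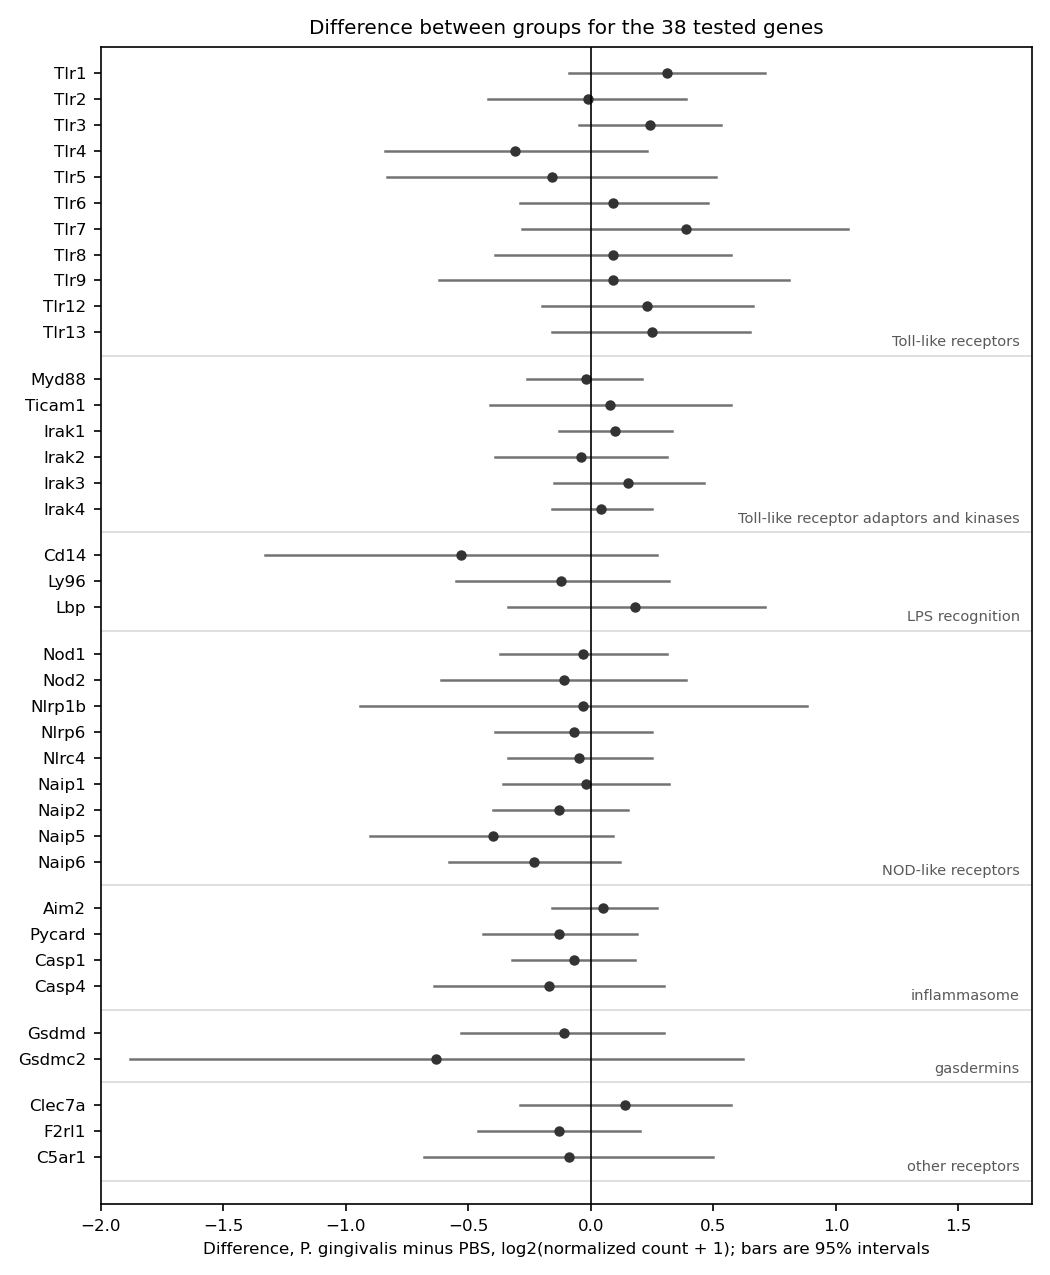
Difference of each tested gene between groups (x axis, P. gingivalis minus PBS, log2(normalized count + 1); points are limma estimates, bars 95% intervals), by class. Every bar crosses 0, and estimates run from -0.63 for Gsdmc2 to 0.39 for Tlr7.

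The levels of the set spanned a wide range, with the gasdermin D and Naip-Nlrc4 genes at the top and the Toll-like receptors well below. Levels of different genes are compared here as normalized counts per kilobase of exon, using merged exon lengths of the GENCODE M21 annotation on GRCm38, so they depend on which isoforms that annotation lists. Gsdmd, the pore-forming gasdermin cut by Casp1, had the highest mean at 902 ± 188 per kilobase (SD, n = 12). Casp1, the inflammatory caspase, followed at 770 ± 114, which overlaps Gsdmd within this spread, and Gsdmd was the highest member in 9 of 12 libraries. Naip5 stood at 558 ± 165, Naip6 at 320 ± 71.7, Nlrp6 at 277 ± 47.3, Naip2 at 240 ± 37.5, Nlrc4 at 207 ± 34.8 and Naip1 at 186 ± 34.2. Neighbours in this order from Naip6 to Naip1 lay within each other's spread, whereas Naip5 was the highest Naip gene in 12 of 12 libraries. The Naip genes share stretches of sequence, given below, so the split of counts among them, and with it their order, is uncertain. Summed over all 11 Toll-like receptors the level was 176 ± 27.9 per kilobase, and both Gsdmd alone and Naip5 alone were above that sum in 12 of 12 libraries. The lowest members were Nlrp10, at 0.856 ± 0.502, followed by Gsdmc3, Nlrp1b and Nlrp3, all with means below that of Tlr5, 3.43 ± 1.53.

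**Figure D2:**
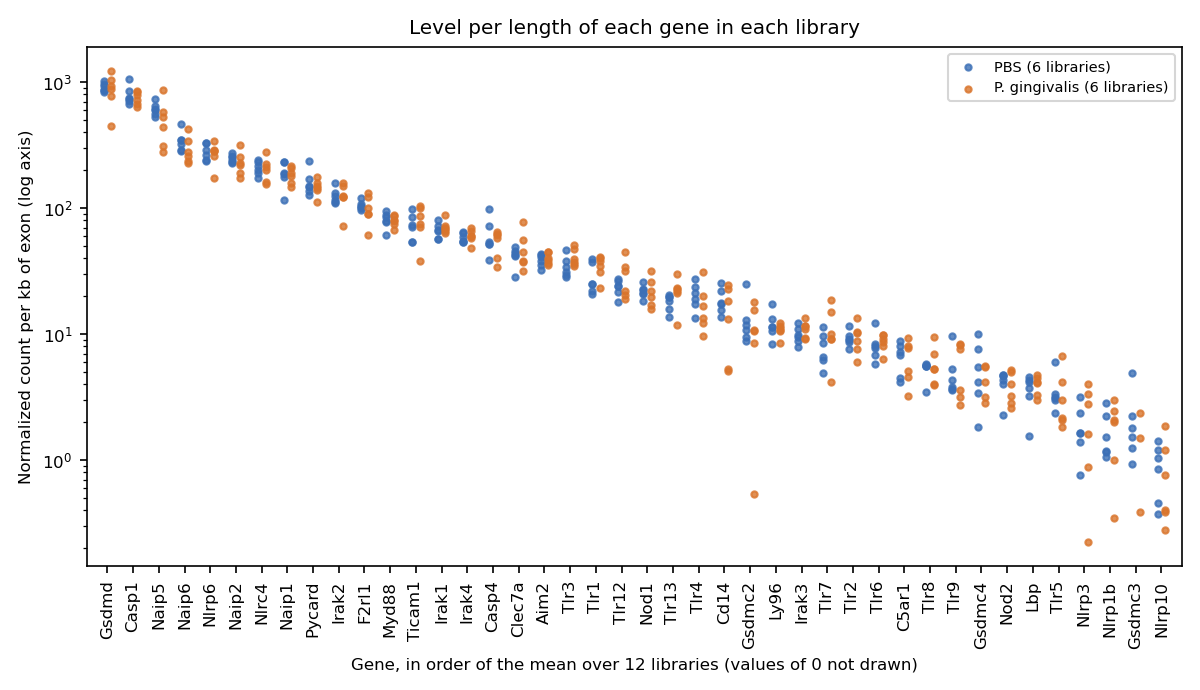
Level per length of the 42 genes (y axis, normalized count per kilobase of exon, log axis), in order of the mean over 12 libraries, with 1 point per library. Gsdmd, Casp1 and Naip5 lead, and Toll-like receptors begin with Tlr3 at a mean of 37.8; values of 0 (Gsdmc3, Gsdmc4) are not drawn.

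Toll-like receptors were detected for all 11 members, and 8 had positive and 3 negative differences with a median of 0.09. Tlr3, the endosomal receptor for double-stranded RNA, was the highest per kilobase in 9 of 12 libraries. Its normalized counts had a lowest, median and highest value of 146.7, 171.1 and 243.8 in PBS and 181.7, 199.7 and 263.4 after P. gingivalis. The lowest P. gingivalis library lay above 4 of the PBS libraries, but PBS replicates 2 and 5 reached into the P. gingivalis range. Tlr3 differed by 0.24 (SE 0.14, interval -0.05 to 0.53), with a limma adjusted p of 0.992. Its exons overlap those of a gene on the other strand, Gm45542, over 7.3% of their length, and the strand setting is not stated.

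Tlr1, which pairs with Tlr2 to bind bacterial lipoproteins, had a lowest, median and highest value of 70.2, 84.3 and 132.8 in PBS and 77.7, 121.5 and 137.4 after P. gingivalis. In PBS only replicates 1 and 2 exceeded 100, and after P. gingivalis only replicate 2 was below that level. Its difference was 0.31 (SE 0.19, interval -0.09 to 0.71). Tlr2 itself, at 22.9 to 35.3 in PBS and 18.1 to 40.7 after P. gingivalis, differed by -0.01 (SE 0.19). Tlr6, the other partner of Tlr2, differed by 0.09 (SE 0.18). Tlr1 and Tlr6 lie next to each other on chromosome 5, from 64924679 to 64933563 and from 64952031 to 64960097, and 13.6% of the 50-base stretches of Tlr1 transcripts also occur in Tlr6 transcripts, so short reads from one could be counted for the other.

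Tlr4, the receptor for LPS, had its highest value of all 12 libraries in P. gingivalis replicate 6, at 173.1, and its lowest in P. gingivalis replicate 2, at 54.2. The PBS libraries lay between 74.5 and 152.8, inside that range, and the difference was -0.31 (SE 0.25, interval -0.84 to 0.23). Without P. gingivalis replicate 6 it was -0.50 (limma adjusted p = 0.526), and without replicate 2 it was -0.17. The summed level of 6 smooth muscle markers was also highest in replicate 6, at 27197, and lowest in replicate 2, at 7683, against 12078 to 20970 in PBS. The part of muscle content in the Tlr4 values was not tested. Tlr5, the surface receptor for flagellin, was weak, at 11.4 to 29.1 in PBS and 8.77 to 32.2 after P. gingivalis, and differed by -0.16 (SE 0.31).

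Tlr7, Tlr8 and Tlr9, the endosomal receptors for single-stranded RNA and for bacterial DNA, reached at most 75.6 in any library. Tlr7 was highest in P. gingivalis replicates 1 and 5, at 75.6 and 61.7, and in PBS replicate 6, at 46.4, all above the other 9 libraries, whose highest value was 40.7. These are the 3 libraries with little Fabp6. Tlr7 differed by 0.39 (SE 0.31, interval -0.28 to 1.05), by 0.13 without those 3 libraries, and, within the P. gingivalis group, by 0.21 without replicate 1 and 0.63 without replicate 2. Tlr8 differed by 0.09 (SE 0.22). Tlr9 differed by 0.09 (SE 0.33) with all libraries, by -0.05 without those 3 libraries and by -0.08 when a score of gut position was a covariate.

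Tlr12 and Tlr13, mouse endosomal receptors for protozoan profilin and bacterial ribosomal RNA, had mean levels of 83.4 and 85.9 over the 12 libraries and differed by 0.23 (SE 0.20) and 0.25 (SE 0.19). Without the 3 libraries with little Fabp6 these were 0.03 and 0.11, and without P. gingivalis replicate 1 alone 0.09 and 0.15. Tlr13 lay between 58.5 and 88.5 in PBS, with a median of 81.9, and between 50.6 and 129.8 after P. gingivalis, with a median of 97.3. The value of 50.6 belonged to P. gingivalis replicate 2, and the other 5 P. gingivalis libraries lay at 90.9 or more, above every PBS library. Without that replicate Tlr13 differed by 0.41 (limma adjusted p = 0.637), and it was then the 1 member of 38 with no overlap between groups, where 0.591% of all genes tested had none. Macrophage and dendritic cell markers were also lowest in P. gingivalis replicate 2, with a sum over 17 genes of 2031. Their sum in PBS ran from 2251 to 3121, and the remaining P. gingivalis libraries had 2329 to 4029. Their part in the Tlr13 values was not tested.

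Of the 6 adaptors and kinases behind these receptors, 4 had positive and 2 negative differences, with a median of 0.06. Myd88, the adaptor of most Toll-like receptors, was at 159.1 to 244.0 in PBS and 171.4 to 226.3 after P. gingivalis and differed by -0.02 (SE 0.11, interval -0.26 to 0.21). Ticam1, the adaptor of Tlr3 and of endosomal Tlr4, differed by 0.08 (SE 0.23) and had its lowest value, 114.0, in P. gingivalis replicate 6. Irak1 and Irak4, kinases recruited by Myd88, differed by 0.10 (SE 0.11) and 0.04 (SE 0.10). Irak2, a further kinase of this complex and the most abundant per kilobase of the 6 genes at 125 ± 23.4, differed by -0.04 (SE 0.16). Irak3, an inhibitor of the pathway, differed by 0.15 (SE 0.14). Exons of Myd88, Irak2, Irak3 and Irak4 overlap those of a gene on the other strand over 4.4% to 11.3% of their length, and without a stated strand setting such reads cannot be told apart.

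Of the 3 LPS recognition genes, Cd14 varied most. Cd14, the LPS co-receptor on chromosome 18 from 36725067 to 36726798, had a lowest, median and highest value of 23.8, 30.5 and 44.3 in PBS and 8.82, 27.2 and 42.6 after P. gingivalis. P. gingivalis replicates 1 and 5, at 8.82 and 9.14, were the lowest of the 12 libraries, and both are among those with little Fabp6. The third such library, PBS replicate 6, was the lowest of its group. Cd14 differed by -0.53 (SE 0.37, interval -1.33 to 0.27). Without the 3 libraries with little Fabp6 the difference was -0.02, and without P. gingivalis replicate 1 or replicate 5 alone it was -0.29. Ly96, the LPS-binding partner of Tlr4, was at 8.52 to 17.6 in PBS and 8.70 to 12.6 after P. gingivalis, and Lbp, the soluble LPS carrier, at 7.56 to 22.1 and 14.5 to 22.7. Each of these last ranges rests on few reads, 143 in all for Ly96 and 226 for Lbp. Ly96 differed by -0.12 (SE 0.20) and Lbp by 0.18 (SE 0.24). Without the 3 libraries with little Fabp6 these were -0.20 and 0.01.

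**Figure D3:**
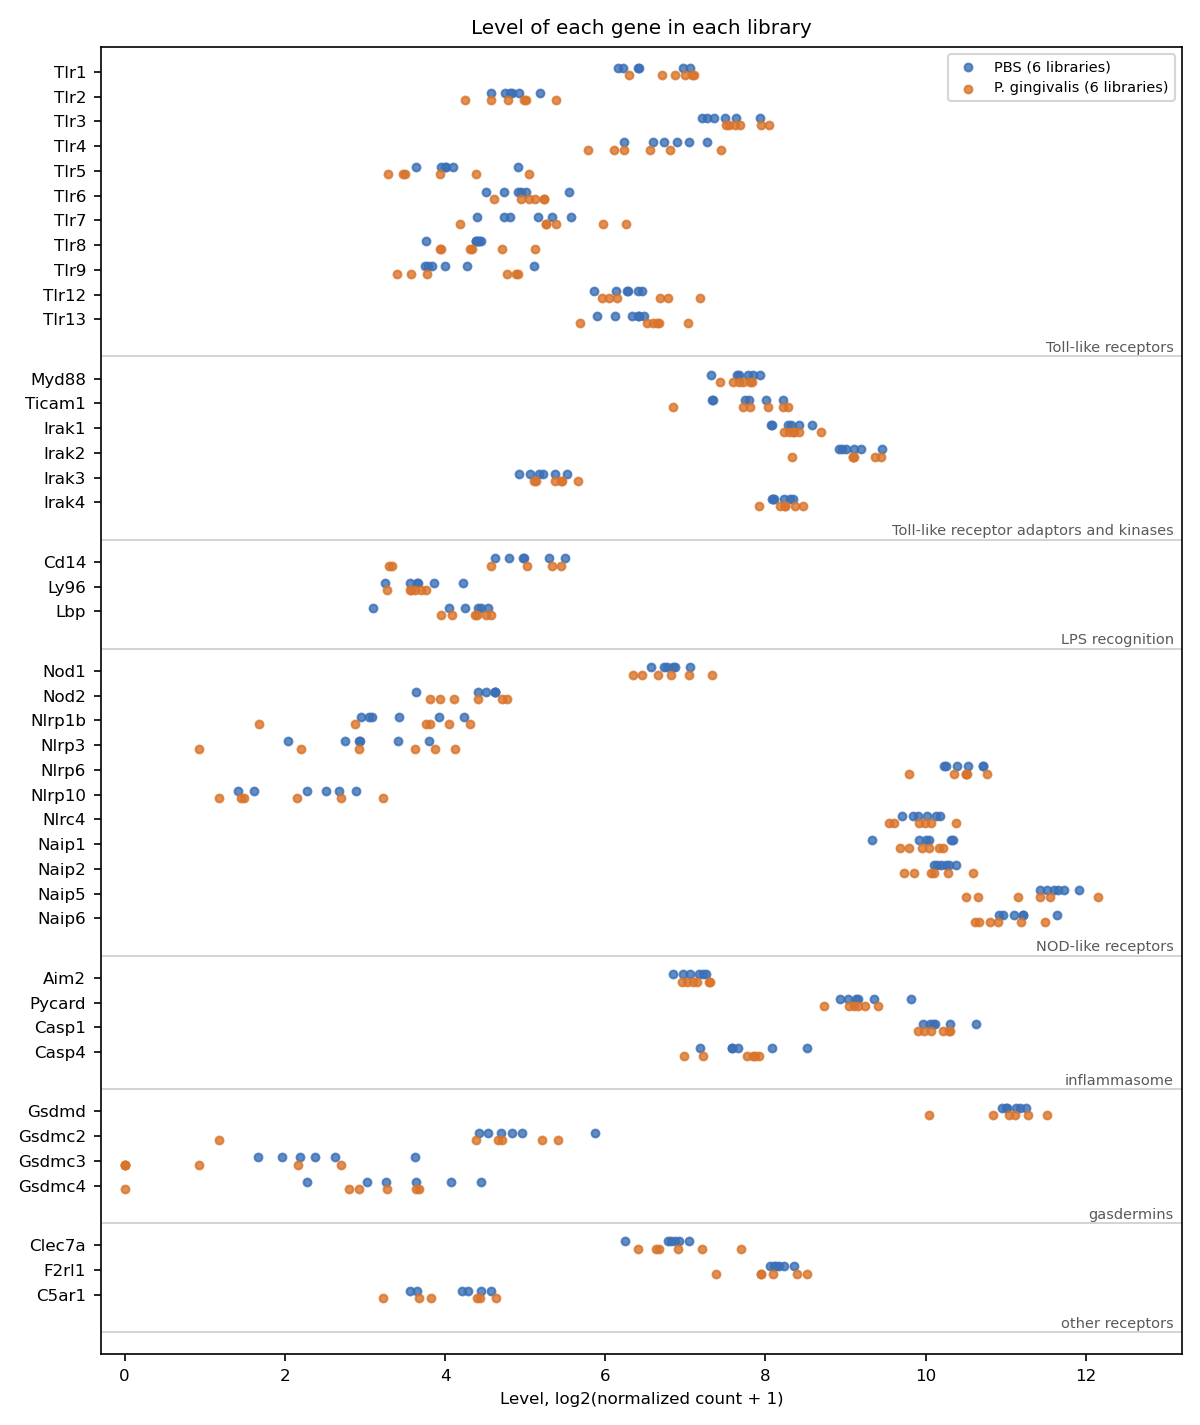
Level of each gene in each library (x axis, log2(normalized count + 1)), with the PBS and P. gingivalis libraries on separate lines, by class. The points of the groups overlap for every gene, and Gsdmc3 reaches 0 in 3 P. gingivalis libraries and Gsdmc4 in 1.

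NOD-like receptors were described by 11 members, of which 9 were tested and 9 had a negative difference. The median was only -0.07, 0 were called, and 51.1% of all tested genes were negative. The cytosolic sensors of bacterial cell wall fragments were unlike in level. Nod1 was at 93.9 to 132.5 in PBS and 80.5 to 160.1 after P. gingivalis and differed by -0.03 (SE 0.16), and Nod2 was at 11.4 to 23.8 and 13.05 to 26.3 and differed by -0.11 (SE 0.23). Without the 3 libraries with little Fabp6, which include the highest value of Nod2 in each group, its difference was -0.29. Nlrp6, an epithelial inflammasome sensor, averaged 1433 ± 216 in PBS and 1383 ± 281 after P. gingivalis (SD, n = 6 per group), a difference of -0.07 (SE 0.15, interval -0.39 to 0.25). Its lowest value, 889, was in P. gingivalis replicate 6, where the epithelial sum was 62995. In P. gingivalis replicate 1 that sum was lower, at 55508, and Nlrp6 was 1451. The part of epithelial content in the Nlrp6 values was not tested.

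The lowest-counted NOD-like receptors were Nlrp3, Nlrp10 and Nlrp1b. Nlrp3, which responds to many danger signals, had 1 to 13 reads per library and 48 reads in each group. Nlrp10 had 1 to 9 reads per library, 27 reads in PBS and 20 after P. gingivalis. Nlrp1b, a sensor of bacterial proteases, was at 6.73 to 17.9 in PBS and 2.19 to 18.9 after P. gingivalis and differed by -0.03 (SE 0.42), with an interval of -0.94 to 0.88. Without the 3 libraries with little Fabp6 it was -0.35.

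The Naip genes lie in a cluster on chromosome 13. On GRCm38, Naip2 runs from 100144063 to 100202092, Naip5 from 100211739 to 100246323, Naip6 from 100281121 to 100317674 and Naip1 from 100407764 to 100452869, all on the minus strand and annotated as protein coding. In mice Naip1 and Naip2 recognise parts of the type III secretion needle and rod, and Naip5 and Naip6 recognise flagellin. The genes are close copies: 36.9% of the 50-base stretches of Naip5 transcripts, 31.5% of those of Naip1, 21.5% of those of Naip6 and 19.1% of those of Naip2 occur in transcripts of another gene, among them the pseudogene Naip3. At 100 bases the shares are 16.2%, 13%, 6.26% and 4.44%. The sources used here state neither the read length nor how reads matching several genes were treated, so the split of counts among these genes is uncertain.

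The sequences before the annotated starts are shown because the 4 genes are counted as separate members and differ in level. Naip2 and Naip5 share a long stretch there, Naip1 shares at most 14 bases in a row with either, and Naip6 at most 7 with any of the others. The windows are the 150 bases before each start from RefSeq on GRCm38.p6, all read on the minus strand: chr13:100452865-100453014 for Naip1, chr13:100202123-100202272 for Naip2, chr13:100247337-100247486 for Naip5 and chr13:100316617-100316766 for Naip6. Capitals mark CCTTTAAGAGG, the longest stretch that Naip1, Naip2 and Naip5 share.
Naip1: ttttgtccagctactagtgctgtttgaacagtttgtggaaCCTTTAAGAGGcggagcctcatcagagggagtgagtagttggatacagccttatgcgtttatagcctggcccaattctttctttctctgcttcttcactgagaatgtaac
Naip2: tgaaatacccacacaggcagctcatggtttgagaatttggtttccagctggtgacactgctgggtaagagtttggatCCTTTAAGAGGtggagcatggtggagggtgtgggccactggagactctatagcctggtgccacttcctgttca
Naip5: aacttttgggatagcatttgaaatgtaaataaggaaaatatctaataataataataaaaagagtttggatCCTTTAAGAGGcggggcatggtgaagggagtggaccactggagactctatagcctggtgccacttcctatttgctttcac
Naip6: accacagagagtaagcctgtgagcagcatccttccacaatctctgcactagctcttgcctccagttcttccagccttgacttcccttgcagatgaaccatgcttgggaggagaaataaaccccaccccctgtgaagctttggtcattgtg
This stretch of 11 bases begins 110, 73 and 80 bases before the starts of Naip1, Naip2 and Naip5. Searched on both strands, it occurs in 22 of 27025 such windows (0.0814%). These letters are not in the Naip6 window, whose annotated start lies inside the GENCODE gene. The start of Naip5 lies outside its GENCODE gene, which ends at 100246323, while the window begins at 100247337. For Naip2 the gene ends at 100202092 and the window begins at 100202123. Naip2 and Naip5 also share 34 bases in a row, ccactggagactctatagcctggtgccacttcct. The stretch was picked because it is shared, and a match describes the letters only.

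Naip5, the most abundant Naip gene, had a lowest, median and highest value of 2762, 3159 and 3847 in PBS and 1450, 2514 and 4529 after P. gingivalis. The lowest 3 values of the 12 libraries were P. gingivalis replicates 6, 1 and 5, at 1450, 1607 and 2276, and the highest was P. gingivalis replicate 2. The difference was -0.40 (SE 0.23, interval -0.90 to 0.09), with a limma adjusted p of 0.992. Without P. gingivalis replicate 2 it was -0.58 (limma adjusted p = 0.634). It was smaller without replicate 1, at -0.28, without replicate 6, at -0.25, and without the 3 libraries with little Fabp6, at -0.27. In the fit without replicate 2, 6 members (Naip2, Naip5, Naip6, Tlr1, Tlr7 and Tlr13) had an unadjusted p under 0.05, beside 6.74% of all genes tested.

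Naip6 had the same libraries at the low end. It had a lowest, median and highest value of 1937, 2284 and 3198 in PBS and 1572, 1852 and 2885 after P. gingivalis, with P. gingivalis replicates 6, 1 and 5 again lowest and PBS replicate 2 highest. It differed by -0.23 (SE 0.16, interval -0.58 to 0.12), and by -0.17 without the 3 libraries with little Fabp6. Naip2 lay between 1099 and 1335 in PBS and between 848 and 1538 after P. gingivalis and differed by -0.13 (SE 0.13, interval -0.40 to 0.15). Naip1 differed by -0.02 (SE 0.16) and was lowest in PBS replicate 6, at 641, and in P. gingivalis replicates 1 and 5, at 816 and 884, while the other 9 libraries had 969 to 1292. Among those 9 it differed by -0.03.

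Nlrc4, the shared partner of the Naip proteins, lay between 837 and 1159 in PBS and between 746 and 1332 after P. gingivalis, and differed by -0.05 (SE 0.14, interval -0.34 to 0.25). Its highest library was P. gingivalis replicate 2 and its lowest 2 were P. gingivalis replicates 1 and 6, as for Naip2. The epithelial marker sum had the same extremes as Nlrc4, Naip2 and Naip5, highest in P. gingivalis replicate 2 and lowest in replicates 1 and 6. Naip6 and Naip1 were instead highest in PBS replicate 2, at 3198 and 1292, where the epithelial sum was 84297. Naip1 was lowest in PBS replicate 6, where that sum was 78942. The part of epithelial content in the Naip and Nlrc4 values was not tested.

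Of the inflammasome genes downstream, none differed between the groups past the test. Pycard, the adaptor that links sensors to caspases, had a PBS mean of 615 ± 150 and a P. gingivalis mean of 557 ± 84.1 (SD, n = 6 each) and differed by -0.13 (SE 0.15). Its highest value, 899, was in PBS replicate 2. Exons of Pycard overlap those of a gene on the other strand, Gm45205, over 12.8% of their length, and the strand setting is not stated. Casp1 averaged 1185 ± 211 and 1122 ± 131 and differed by -0.07 (SE 0.12, interval -0.32 to 0.18). Casp4, the mouse caspase that binds LPS in the cytosol, lay between 145 and 366 in PBS and between 126 and 240 after P. gingivalis and differed by -0.17 (SE 0.22). It was lowest in the 3 libraries with little Fabp6, at 126 to 149 against 191 to 366 in the other 9, and without them it differed by -0.04. Aim2, a cytosolic DNA sensor, was the steadiest member, with a ratio of 1.39 between its highest and lowest library and a difference of 0.05 (SE 0.10, interval -0.16 to 0.27).

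The gasdermins fell apart into 1 abundant and 3 weak genes by level. Gsdmd, on chromosome 15 from 75862327 to 75867408, had a lowest, median and highest value of 1976, 2153 and 2448 in PBS and 1057, 2161 and 2934 after P. gingivalis. The medians nearly coincided, and the P. gingivalis extremes were replicate 6 at the bottom and replicate 2 at the top. Gsdmd differed by -0.11 (SE 0.19, interval -0.53 to 0.30), and by 0.07 without replicate 6.

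Gsdmc2, Gsdmc3 and Gsdmc4 are neighbouring genes of the gasdermin C family on the same chromosome, between 63824346 and 63912297, and lie near or below the filter. Gsdmc2 had 1 read in P. gingivalis replicate 1 and 19 to 61 reads in the other 11 libraries. Its normalized counts were 20.5 to 57.8 in PBS and 1.26 to 41.6 after P. gingivalis, and the difference of -0.63 (SE 0.58) had the widest interval of the set, from -1.88 to 0.62. Without P. gingivalis replicate 1 the difference was -0.01, without the 3 libraries with little Fabp6 it was -0.06, and by edgeR with all libraries -0.29. Gsdmc3 had 32 reads in PBS and 10 after P. gingivalis, with 0 in P. gingivalis replicates 1, 4 and 5. In these libraries 0 reads allow a level of up to 3 reads, or 3.78, 3.59 and 3.43 normalized counts. The PBS values ran from 2.16 to 11.4, with a median of 3.875. PBS replicates 1, 4 and 6, at 3.57, 2.885 and 2.16, lay below at least 1 of these limits. Levels up to near the PBS median therefore could not be told from 0 there. Gsdmc4 had 74 reads in PBS and 44 after P. gingivalis, with 0 in P. gingivalis replicate 1. That library was lowest for Gsdmc2 and Gsdmc4 and among the lowest 3 for Gsdmc3, and PBS replicate 3 was highest for all 3 genes, at 57.8, 11.4 and 20.8 normalized counts. Since 51.3%, 46% and 39% of the 50-base stretches of Gsdmc2, Gsdmc3 and Gsdmc4 transcripts occur in another gene's transcripts, the 3 are not independent measurements.

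Other receptors were represented by 3 genes. Clec7a, the lectin receptor for fungal glucans, lay between 75.2 and 130.6 in PBS and between 84.1 and 206.7 after P. gingivalis, and differed by 0.14 (SE 0.20). Its highest 3 libraries were those with little Fabp6, at 130.6 to 206.7 against at most 120.2 elsewhere, and without them the difference was -0.08. F2rl1, a receptor that proteases activate by cleavage, had means of 289 ± 22.2 (PBS) and 271 ± 70.8 (P. gingivalis) and differed by -0.13 (SE 0.15). The P. gingivalis values spread from 166.4 in replicate 1 to 364.3 in replicate 2, outside the PBS range of 264.5 to 327.7 on both sides. C5ar1, the receptor for the complement fragment C5a, lay between 10.8 and 22.8 in PBS and between 8.37 and 23.95 after P. gingivalis and differed by -0.09 (SE 0.28), and by -0.46 without the 3 libraries with little Fabp6.

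The spread between libraries was set by few of them. PBS replicate 2 gave the highest value for 6 of the 38 tested members and the lowest for 2. PBS replicate 3 gave the highest for 1 and the lowest for 5. P. gingivalis replicates 1, 2 and 6 gave the highest value for 8, 8 and 6 of the 38 and the lowest for 5, 5 and 10. Replicate 6 was lowest for Nlrp6, Naip5, Naip6, Pycard, Casp1, Gsdmd, Ticam1, Irak2, Irak4 and Tlr9, and highest for Tlr1, Tlr4, Tlr5, Tlr8, Nod1 and Irak3. Replicate 2 was highest for Nlrp6, Nlrc4, Naip2, Naip5 and Gsdmd and lowest for Tlr2, Tlr4, Tlr7, Tlr13 and Nod1. The median distance of a member from its mean over all libraries was 0.38, 0.37 and 0.35 log2 units in replicates 1, 2 and 6, and 0.09 to 0.31 in PBS. In the 3 libraries with little Fabp6, 4 members (Tlr7, Tlr9, Nod2 and Clec7a) were above and 2 (Naip1 and Casp4) below all 9 others, or 10.5% and 5.26% of the 38, beside 6.46% and 4.93% of all tested genes. Macrophage and dendritic cell markers were summed at 3121, 4029 and 3327 in these libraries and at 2031 to 2885 in the other 9, and their part in those values was not tested.

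**Figure D4:**
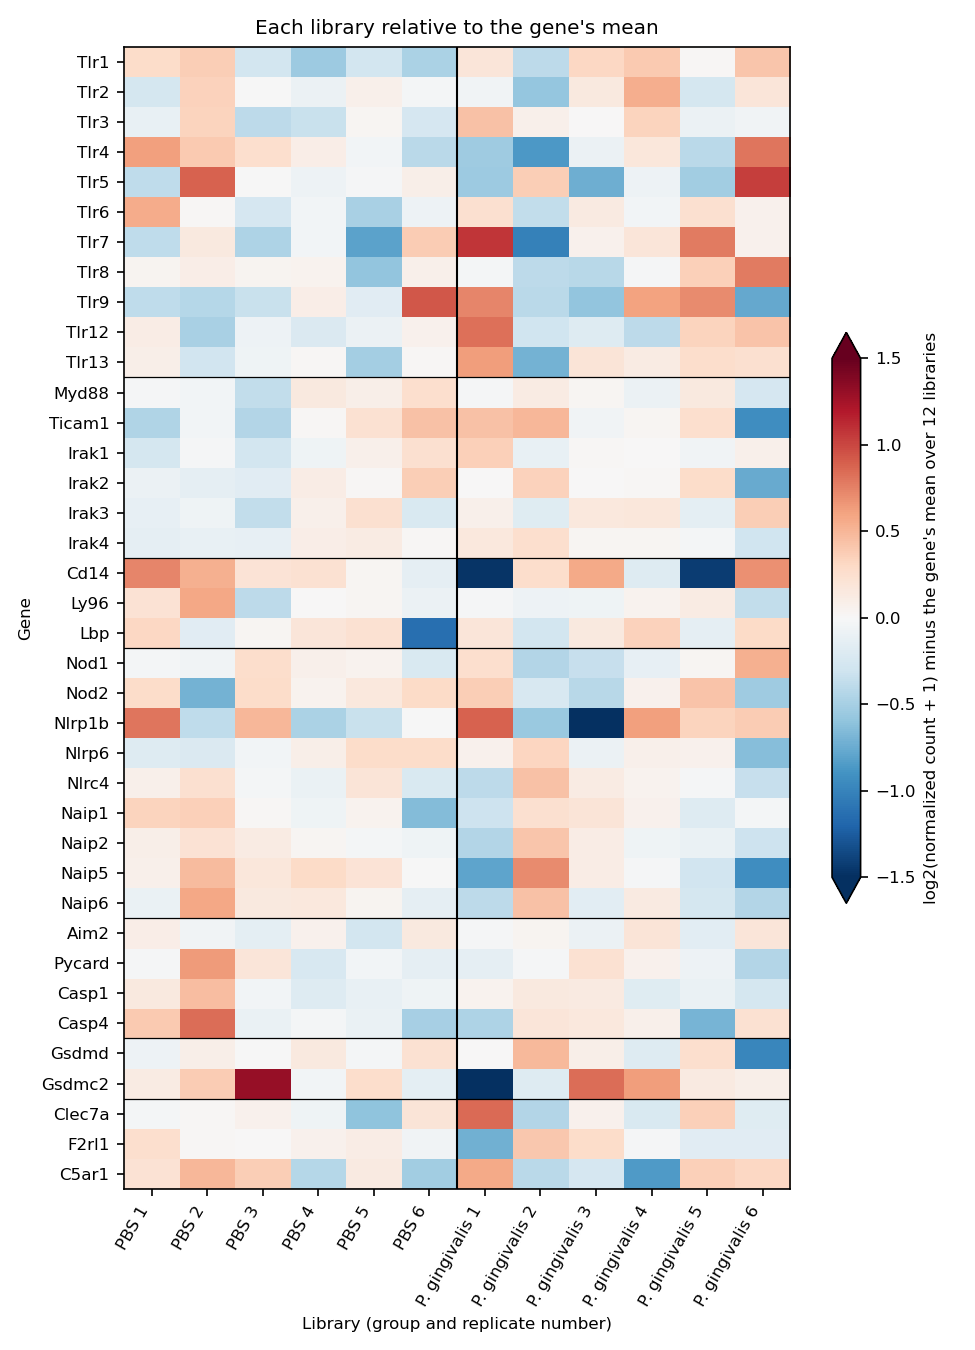
Each tested gene (rows, by class) in each library (columns), coloured by log2(normalized count + 1) minus the gene's mean over 12 libraries, with the colour scale ending at -1.5 and 1.5. P. gingivalis 2 is red and P. gingivalis 6 blue for Naip5, Nlrp6 and Gsdmd, and the colours swap for Tlr4 and Nod1.

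Genes of the same pathways outside the set gave the same count of calls, 0 of 77 tested by limma, by edgeR and, over 90 with reads, by DESeq2, with 5, 6 and 6 at an unadjusted p under 0.05. Over all genes 3.73%, 3.79% and 2.58% were under it by these tools. Of 26 other Toll-like receptor pathway genes tested, 18 were positive and 8 negative, with a median of 0.07. The genes with the smallest p were Tlr11, a profilin receptor, at 27.8 ± 4.75 in PBS and 40.6 ± 9.19 after P. gingivalis, and Tab2, a kinase adaptor, at 531 ± 33.8 and 596 ± 41.7. Tlr11 differed by 0.51 (SE 0.18, interval 0.13 to 0.90) and Tab2 by 0.17 (SE 0.07), with a limma adjusted p of 0.992 each. On the negative side stood Nfkbia, the NF-kB inhibitor, at -0.16 (SE 0.11) and the kinase Ikbke at -0.25 (SE 0.18).

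Of 26 other NOD-like receptor and inflammasome genes tested, 16 were positive and 10 negative, with a median of 0.13. Txnip, a thioredoxin-binding protein that can bind Nlrp3, had means of 4718 ± 1238 (PBS) and 3256 ± 553 (P. gingivalis) and ranged from 3804 to 7145 and from 2608 to 3861. The ranges overlapped between 3804 and 3861. Its difference was -0.52 (SE 0.16, interval -0.87 to -0.17), with a limma adjusted p of 0.870. Panx1, a membrane channel, differed by -0.23 (SE 0.14), Il18r1, an interleukin 18 receptor chain, by 0.28 (SE 0.16) and Ciita, the activator of MHC class II genes, by 0.31 (SE 0.21).

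Among 6 other gasdermin and lytic death genes tested, 2 were positive and 4 negative. Dfna5, which encodes gasdermin E, had means of 1063 ± 366 (PBS) and 771 ± 504 (P. gingivalis) and differed by -0.78 (SE 0.51, interval -1.88 to 0.32), and Ninj1, which ruptures the membrane of dying cells, by -0.16 (SE 0.13). Zbp1, a nucleic acid sensor of necroptosis, differed by 0.66 (SE 0.25) and Mlkl, its pore-forming effector, by 0.05 (SE 0.17). All 8 tested nucleic acid sensor genes were positive with a median of 0.11 and 0 at an unadjusted p under 0.05, led by Ifi203 at 0.39 (SE 0.21) and Dhx58 at 0.45 (SE 0.29). Of 11 other lectin, peptidoglycan, complement and protease receptor genes tested, 6 were positive and 5 negative. C3, the central complement component, had means of 853 ± 216 (PBS) and 557 ± 327 (P. gingivalis) and differed by -0.79 (SE 0.34, interval -1.52 to -0.06), with a limma adjusted p of 0.992. The part of the fat cell and mesothelial markers, which were lower after P. gingivalis, in the Txnip, Dfna5 and C3 values was not tested. Pglyrp1, a peptidoglycan recognition protein, differed by -0.30 (SE 0.22), the lectin Cd209b by 0.46 (SE 0.23) and C3ar1, a complement receptor, by 0.37 (SE 0.24).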

How the data were processed

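The authors deposited 1 table of normalized counts for 12 libraries, a signal made by dividing gene counts by 1 size factor per sample, as the values show. Per the submitters' processing notes, FastQC, HISAT2, Cufflinks and DESeq2 were used with GRCm38 (mm10); for versions, roles, strand setting and gene annotation, the answer is not given in the sources used here. Values were whole multiples of 1 step per library (100% within 0.001 reads), so whole reads were recovered; a floor of 3 reads covers counting error only. No library was a copy of another (chi-square over degrees of freedom at least 7.09 for every pair).

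Groups were compared with limma 3.58.1 (R 4.3.3, mean-variance trend) on log2(normalized count + 1) for the 15025 genes with a mean of at least 10, two-sided, with Benjamini-Hochberg adjustment over all of them at 0.05. The pseudocount of 1 understates changes of weak genes. Alternatives were edgeR 4.0.16 and DESeq2 1.42.0 on recovered reads, other pseudocounts, filters and scaling, a replicate block, sample weights, a covariate (a gut position score from proximal and ileal marker lists, or a B cell list) and left-out libraries. The steps were tested on simulated data. Members and lists were chosen with earlier results of these data known. Every member is named; of the pathway lists, genes that passed were to be named, or else up to 2 with the smallest p in each direction. Gene lengths, positions and transcript stretches are from GENCODE M21, and promoter windows, found for 32 of 42 members, from RefSeq on GRCm38.p6.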

Additional observations from a re-analysis of the deposited data

Results flagged for a closer look

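Among 84 sets of 6 values (42 genes in 2 groups), 8 held 1 library well outside the remaining 5 values. By chance about 1 set in 20 would if the values were normally distributed. That was not tested, and sets from the same libraries are not independent. PBS replicate 2 stood apart for 3 genes: Tlr5 was 29.1 there against 11.4 to 16.2 in the other PBS libraries, Naip6 3198 against 1937 to 2374, and Nod2 11.4 against 20.2 to 23.8. PBS replicate 3 was high for 2 gasdermin C genes that share sequence, Gsdmc2 at 57.8 against 20.5 to 30.1 and Gsdmc3 at 11.4 against 2.16 to 5.19. Tlr8 was 12.5 in PBS replicate 5 against 19.9 to 20.8, and Tlr9 was 33.5 in PBS replicate 6 against 12.5 to 18.3. In the P. gingivalis group, Irak1 was 413.4 in replicate 1 against 299.2 to 341.0.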

How the results depend on the processing

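No member and no other pathway gene was called under any alternative run. Over all members and alternatives the smallest adjusted p was 0.526, for Tlr4 without P. gingivalis replicate 6. Over the whole table the calls numbered 1 with a pseudocount of 5, 20 with sample weights, 31 by DESeq2, 1 without the 3 libraries low in Fabp6, and 0 to 53 when single libraries were left out (7 without PBS replicate 5 and 1 without PBS replicate 6, and, of the P. gingivalis group, 1 without replicate 2 and 53 without replicate 6). Members without overlap between groups numbered 0 to 1 when single libraries were left out. Members at an unadjusted p under 0.05 numbered 6 without P. gingivalis replicate 2, beside 6.74% of all genes tested. They numbered 1 with no filter on low values (Gsdmc3), beside 1110 of 27225 genes. With the replicate block they numbered 2 (Naip5 and Naip6), beside 462 of 15025. Sample weights gave 2 (Tlr1 and Tlr3), beside 1111 of 15025. Leaving out PBS replicate 2 gave the same 2, beside 456 of 15010. Leaving out P. gingivalis replicate 6 gave 1 (Tlr4), beside 1249 of 14981. Every other alternative gave 0.

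Of 898 member differences under an alternative 59 had the other sign, none of them called. With sample weights they were 0.08 for Tlr2, 0.02 for Myd88, 0.05 for Irak2, 0.0037 for Nlrc4, 0.0003 for Pycard and 0.00029 for Casp1. By edgeR they were 0.03 for Tlr2, 0.01 for Nod1 and 0.08 for Nlrp1b, and by DESeq2 0.02, 0.0015 and 0.08 for the same genes. With the gut position score they were 0.02 for Tlr2, -0.08 for Tlr9, -0.02 for Ticam1 and 0.05 for Naip1, with the B cell list 0.0021 for Naip1 and with a pseudocount of 5 0.02 for Nlrp1b. Without the 3 libraries low in Fabp6 they were 0.06 for Tlr2, 0.06 for Tlr5, -0.01 for Tlr6, -0.05 for Tlr9, -0.08 for Clec7a and 0.03 for F2rl1. Leaving out single libraries gave -0.12 to 0.10 for Tlr2, -0.05 to 0.18 for Tlr8, -0.04 to 0.29 for Tlr9, -0.10 to 0.03 for Myd88, -0.0095 to 0.28 for Ticam1, -0.02 to 0.26 for Lbp, -0.14 to 0.05 for Nod1, -0.21 to 0.32 for Nlrp1b, -0.14 to 0.06 for Nlrp6, -0.14 to 0.03 for Nlrc4, -0.15 to 0.05 for Naip1, -0.11 to 0.02 for Casp1, -0.22 to 0.07 for Gsdmd, -0.02 to 0.24 for Clec7a, -0.11 to 0.11 for Irak2, -0.0041 to 0.11 for Irak4 and -0.21 to 0.07 for C5ar1. The other 17 members kept their sign throughout. The cause of these changes was not tested.

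Whether the numbers in the sample titles pair the samples is not settled. Deviations were correlated above 0.1 for 0 of 6 same-numbered pairs, which cannot exclude a pairing. Pairs 1 and 6, at -0.443 and -0.542, each set a library low in Fabp6 against one that was not. Pair 5 did so too, at -0.049. The part of the Fabp6 contrast in these correlations was not tested. With the title number as a replicate block, 0 genes were called over the whole table and 0 members. Depth limits the result for Nlrp3, Nlrp10, Gsdmc3 and Gsdmc4. With no filter on low values Gsdmc3 differed by -1.44 (limma adjusted p = 0.909).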
